A study of Mus musculus with 12 samples.

Results

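The genes described here code for secreted cytokines and colony-stimulating factors: Tnf, Il6, Lif, Csf1, Csf2, Csf3, Il12b, Il27, Il10 and Gdf15. The 10 genes were named by symbol, and every array probe that carries one of these names was taken, which gave 12 probes (58 spots on each array) of 55681 probes. Of these 10 genes, 7 passed the filter on dim signal, which asked for a probe well above background on each of the 3 arrays of some group, and were tested among the 13923 genes that passed, of 24321 named genes in all. Lif, Il10 and Il12b did not pass, and their values are given as measured.

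RNA of RAW264.7 cells, an immortalised mouse macrophage line, was hybridised to 12 single-dye arrays, with 3 arrays in each of 4 groups. HS + LPS cells received 40 mM added NaCl and 10 ng/ml LPS, NS + LPS cells received LPS alone, HS cells received the added NaCl alone and NS cells received neither, all for 24 h. LPS is the outer membrane lipid of Gram-negative bacteria. The labels do not spell out NS and HS, so HS was read as high salt and NS as the same culture without added NaCl. They also do not say whether the 3 replicates of a group were separate cultures, so each p-value measures the spread between these arrays, which may be technical. A single macrophage line in culture cannot stand for tissue macrophages, and transcripts were measured, not secreted protein.

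Macrophages sense LPS through TLR4, and the signal reaches cytokine genes through the transcription factors NF-kB, AP-1, C/EBP and the interferon regulatory factors. The products then act on neighbouring cells and on the macrophage itself: Tnf and Il6 drive inflammation, the colony-stimulating factors control the survival and output of myeloid cells, Il12b and Il27 steer T cells, and Il10 restrains the response. Gdf15, a distant relative of the TGF-beta family, is better known as a product of stressed cells.

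The promoter sequences are shown first for the genes whose transcripts were lowest relative to NS + LPS when salt was added to LPS (Il6, Csf2 and Csf1) and for Tnf, which was slightly higher there. Each is the stretch of 250 bases just upstream of the annotated start, from RefSeq on GRCm38.p6, read 5′ to 3′ on the gene's strand. The windows lie at chr5:30012864-30013113 (plus strand), chr11:54249900-54250149 (minus), chr3:107760470-107760719 (minus) and chr17:35202008-35202257 (minus). Capitals mark matches, on either strand, to a kB motif (GGG, then any 2 bases, then TTTCC), a C/EBP motif spelled TTNNGNAA or an AP-1 motif spelled TGANTCA.
Il6: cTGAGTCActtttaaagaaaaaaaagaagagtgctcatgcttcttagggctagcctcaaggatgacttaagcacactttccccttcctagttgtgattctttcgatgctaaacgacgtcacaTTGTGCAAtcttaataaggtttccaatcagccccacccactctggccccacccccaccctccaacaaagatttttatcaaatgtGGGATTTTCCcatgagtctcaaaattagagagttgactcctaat
Csf2: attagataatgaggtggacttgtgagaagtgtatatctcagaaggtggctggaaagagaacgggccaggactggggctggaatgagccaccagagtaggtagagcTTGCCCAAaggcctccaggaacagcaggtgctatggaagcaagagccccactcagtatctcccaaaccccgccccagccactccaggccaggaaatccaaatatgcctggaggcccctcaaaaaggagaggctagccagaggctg
Csf1: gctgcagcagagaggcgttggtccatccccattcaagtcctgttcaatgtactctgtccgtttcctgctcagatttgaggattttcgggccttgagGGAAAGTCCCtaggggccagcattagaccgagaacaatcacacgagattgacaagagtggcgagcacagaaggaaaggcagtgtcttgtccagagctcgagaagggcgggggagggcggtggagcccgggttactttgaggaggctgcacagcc
Tnf: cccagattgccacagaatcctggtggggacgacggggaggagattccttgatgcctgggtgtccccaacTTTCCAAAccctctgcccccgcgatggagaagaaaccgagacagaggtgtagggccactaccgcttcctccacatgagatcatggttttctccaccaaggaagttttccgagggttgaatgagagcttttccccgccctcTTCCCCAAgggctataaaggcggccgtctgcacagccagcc

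The Il6 window held all 3 motifs: kB at -44 to -35 from the start, C/EBP at -128 to -121 and AP-1 at -249 to -243. The Csf1 window held a kB match on the opposite strand at -154 to -145, the Csf2 window a C/EBP match at -145 to -138, and the Tnf window C/EBP matches at -181 to -174 and -41 to -34. Windows were found for 7 of the 10 genes, and not for Csf3, Il10 and Il27. The kB letters were in 2 of the 7 (1.41% of 32851 windows of all genes), the C/EBP letters in 4 (36.8%) and the AP-1 letters in 2 (6.75%). A gene counted with a match in any of its windows, whereas the shares over all genes are per window. Gdf15 had 2 windows, and its C/EBP match was in window 2. No motif overlapped another in these windows, and a match describes letters only, not a bound site.

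A second feature of cytokine transcripts is the AU-rich element, a run of ATTTA letters in the 3′ untranslated region that is known to shorten messenger life. ATTTA occurred in 4 of the 12 probes for these genes (33.3%), against 4294 of all 55681 probes (7.71%). Only the probe sequences were searched, not the whole 3′ untranslated region, so a probe without ATTTA does not mean a transcript without it. The 30 bases around it are shown for those 4 probes, on the strand of the transcript, with ATTTA in capitals. They lie on mm9 at chr11:98564627-98564656 (Csf3, plus strand), chr8:73153316-73153345 (Gdf15, minus), chr11:4172042-4172071 (Lif, plus) and chr1:132920962-132920991 (Il10, plus).
Csf3: tccctgtttaatATTTAaacagcagtgttc
Gdf15: gatggattgtgtATTTATTTAaaactctgc
Lif: aaaggggcctttATTTAttATTTAaaactt
Il10: tctctccgaaatATTTAttacctctgatac

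The Gdf15 window holds 2 overlapping ATTTA runs and the Lif window 2 separate ones. These 4 genes did not share a pattern over the groups: Csf3 was at background without LPS and bright with it, Gdf15 was lower with LPS alone, and Lif and Il10 stayed near background.

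The HS + LPS arrays were dimmer than the other arrays. The array's 75th percentile of signal was 411 to 438 in HS + LPS, 621 to 635 in NS + LPS, 613 to 656 in HS and 641 to 783 in NS, and 43.7 to 44.7%, 45.03 to 49.8%, 46.5 to 52.8% and 49.4 to 50.6% of probes were well above background in the same order. The 3 HS + LPS arrays shared a slide that held no other group and were scanned on a later day than the rest, so for this group the treatment and the slide or scan day cannot be told apart. Of 9 macrophage markers on the array, 8 were well above background on all 12 arrays and Cd200r1 on 8. Their summed signal was 115031 to 119491% of the 75th percentile in HS + LPS, 95844 to 100799% in NS + LPS, 92613 to 102102% in HS and 95290 to 99989% in NS. Of 22 markers of other cell types, 3 to 5 were above background on any array (Cd3e, Cd4 and Pecam1 on 12 arrays), with sums of 309 to 330%, 297 to 347%, 321 to 363% and 277 to 299.7% in the same order; their part in the cytokine results was not tested. In bulk RNA, fewer producing cells and less RNA per cell cannot be told apart. Levels below are processed signal as a percent of the array's 75th percentile, for each array in the order of replicates 1, 2 and 3, and one gene's level is not set against another's because probes differ in brightness. Differences are on the log2 scale from limma (SE in parentheses), with Benjamini-Hochberg adjustment over all 13923 genes and a call at an adjusted p under 0.05.

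**Figure D1:**
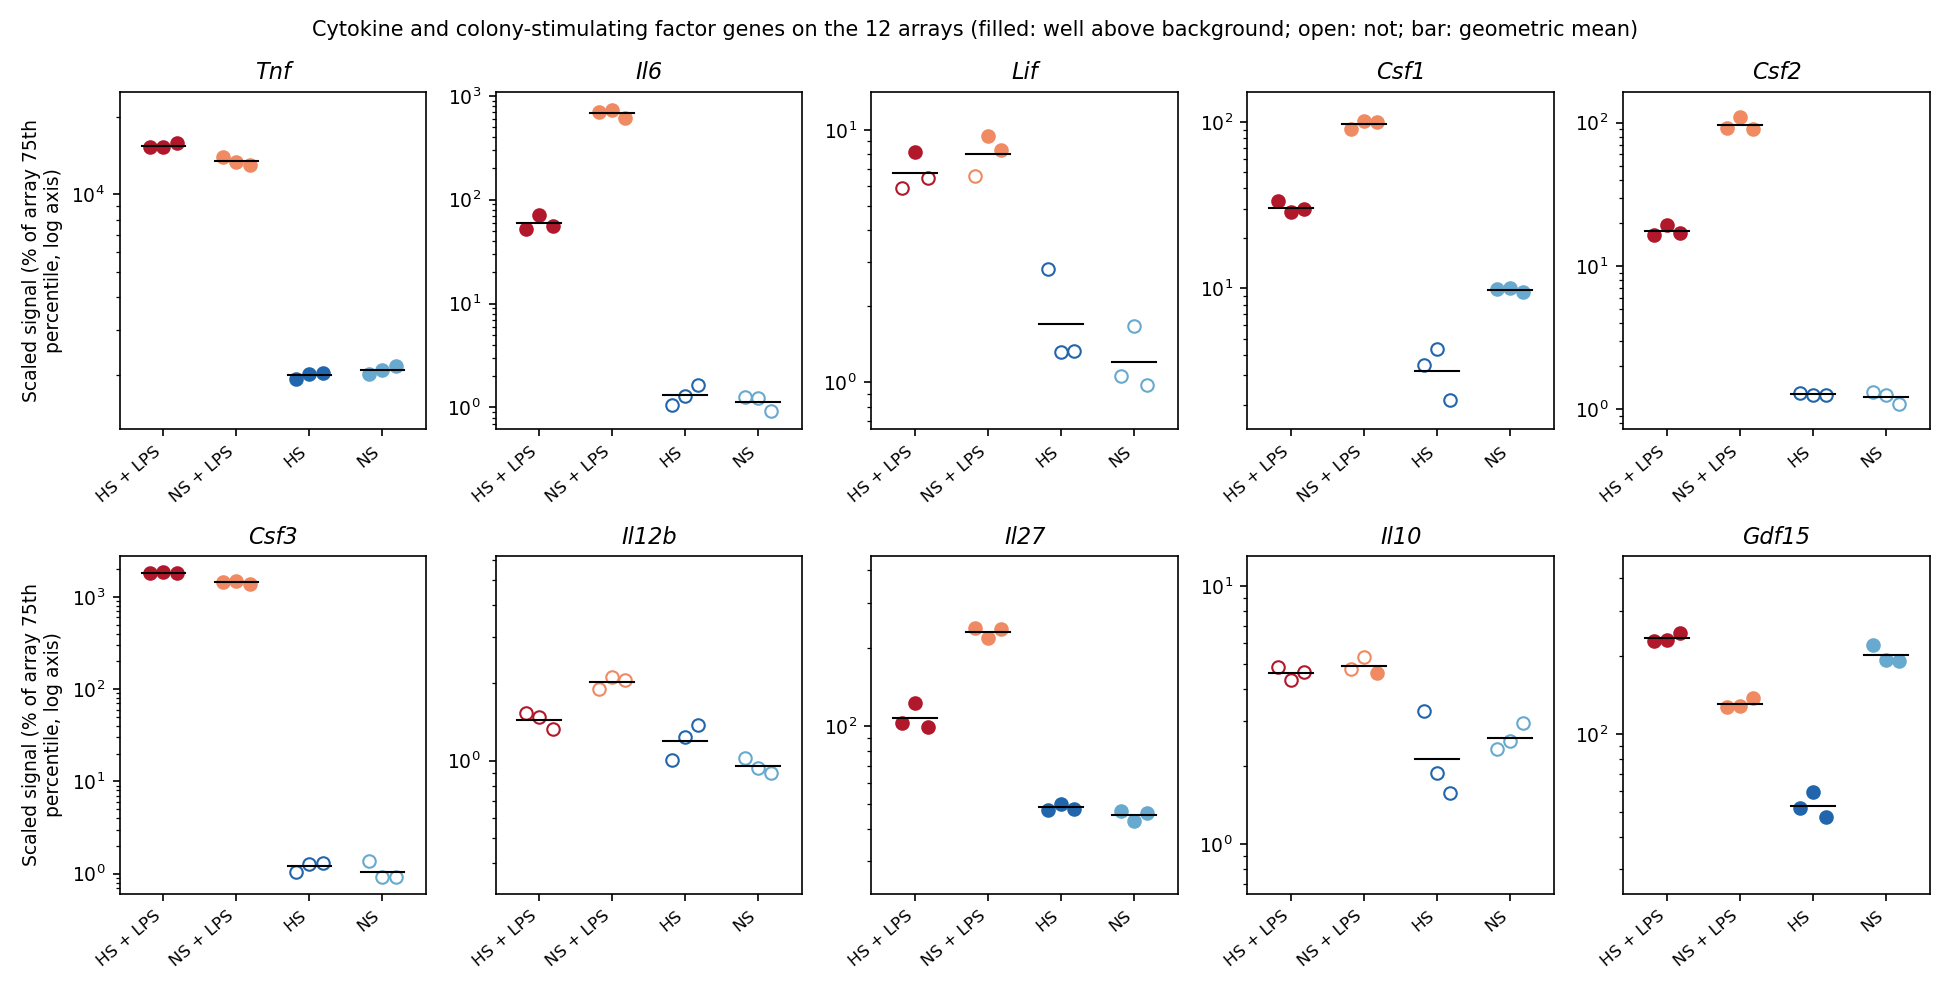
Signal of the 10 genes on each array, as percent of the array's 75th percentile on a log axis, with 3 arrays per group, the geometric mean as a bar, and open points where the probe was not well above background. Il6, Csf2, Csf1 and Il27 are lower in HS + LPS than in NS + LPS, Tnf, Csf3 and Gdf15 are higher there, and Lif, Il10 and Il12b stay at or near background.

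Salt in LPS-treated cells gave calls in both directions. Of the 7 tested, 4 fell (Il6, Csf2, Csf1 and Il27), Gdf15 and Tnf rose and Csf3 was not called. Over all genes, 57.5% were called in this comparison, 26.1% higher and 31.3% lower, so the count of 6 called says little by itself. All 4 that fell did so at least 2-fold, which 3.39% of all genes did.

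Il6, the pleiotropic cytokine that drives the acute phase response and B cell growth, fell most of the 7. It was at 52.8, 71.6 and 56.4% in HS + LPS, against 699.7, 726 and 618% in NS + LPS. Every HS + LPS array lay far below the lowest NS + LPS array. The level in HS + LPS was 11.4-fold lower (log2 difference -3.51, SE 0.18, adjusted p = 3.05e-07), which left 8.78% of the NS + LPS level (95% confidence interval 6.68 to 11.6%). Il6 had the third-lowest difference of all genes (rank 3 of 13923). It remained well above background on all 3 HS + LPS arrays. Its promoter window, printed above, was the one of the 4 shown that held all 3 motifs, and a link between motifs and the fall was not tested.

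Csf2, or GM-CSF, the growth factor of granulocytes and macrophages, was next. It was at 16.5, 19.4 and 17.1% in HS + LPS, against 91.5, 109 and 90.6% in NS + LPS. The groups did not overlap, and the fall was 5.49-fold (-2.46, SE 0.094, adjusted p = 6.75e-08; rank 33 from the lowest). Each array held 10 spots of this probe, and their SD was 0.097 to 0.17 (log2) in HS + LPS and 0.034 to 0.058 in NS + LPS, far below the difference. With normexp background correction the difference was -1.68 (adjusted p = 1.09e-08).

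Csf1, or M-CSF, the survival factor of the macrophage lineage, was at 33.5, 28.7 and 29.9% in HS + LPS, against 90.6, 101 and 100.1% in NS + LPS. The groups did not overlap, and the fall was 3.17-fold (-1.66, SE 0.20, adjusted p = 7.42e-05). Another pair of Csf1 probes, which overlap on mm9 (chr3:107548521-107548580 and chr3:107548550-107548609, minus strand), were well above background in NS + LPS alone. The first read 2.35, 3.88 and 4.45% in HS + LPS, against 7.77, 7.77 and 9.32% in NS + LPS, and the second 3.17, 2.77 and 2.64% in HS + LPS, against 9.57, 9.41 and 13.1% in NS + LPS. They read at least 1.68-fold (adjusted p = 0.00258 over 18845 probes) and at least 2.18-fold lower (adjusted p = 2.25e-06). This pair is annotated to another Csf1 transcript than the main probe. It passed the filter through NS + LPS alone, a choice that favours a fall, so its values are a description and no separate support for the main probe.

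Il27 codes for the p28 subunit of IL-27, which pairs with Ebi3 and acts on T cells. It was at 103, 122 and 99.2% in HS + LPS, against 238, 218 and 238% in NS + LPS, with no overlap. The fall was 2.15-fold (-1.10, SE 0.077, adjusted p = 1.99e-06). Ebi3 was at 6305 ± 207% in HS + LPS and 7886 ± 415% in NS + LPS (mean ± SD, n = 3 arrays each) and fell by less, by 0.32 (SE 0.052, adjusted p = 0.00052). The difference between these 2 falls was not tested.

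Gdf15 went the other way. It was at 229.8, 231 and 245% in HS + LPS, against 127, 129 and 137% in NS + LPS, with no overlap between groups. The rise was 1.80-fold (0.84, SE 0.082, adjusted p = 1.71e-05).

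Tnf, the early inflammatory cytokine that activates endothelium and other immune cells, was only slightly higher, at 15285, 15275 and 15871% in HS + LPS, against 13958, 13416 and 13050% in NS + LPS. The groups did not overlap, with a 1.15-fold rise (0.20, SE 0.043, adjusted p = 0.00281). The 10 spots of the probe had SDs of 0.023 to 0.054 in HS + LPS and 0.029 to 0.037 in NS + LPS. In the same comparison Gapdh, often used as a loading control, was at 0.36 (SE 0.062, adjusted p = 0.000734) and Actb at 0.19 (SE 0.053, adjusted p = 0.0118), next to 0.20 for Tnf. With quantile normalization Gapdh was at 0.081 and Actb at -0.047, neither called, and Tnf at 0.17 (adjusted p = 0.0087), and the value table gave the same picture (0.080 for Gapdh, -0.047 for Actb and 0.18 for Tnf). With cyclic loess both controls were called (Gapdh 0.34, Actb 0.16) beside Tnf at 0.18, as they were with normexp correction (Gapdh 0.26, Actb 0.14) beside Tnf at 0.13.

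Csf3, or G-CSF, which drives neutrophil production, was at 1813, 1841 and 1807% in HS + LPS, against 1455, 1477 and 1394% in NS + LPS. The groups did not overlap, as for 64.2% of all genes, and the difference of 0.34 (SE 0.14, 95% interval 0.02 to 0.66) was not called (adjusted p = 0.0688). It was called with quantile normalization (0.40, adjusted p = 0.00221), cyclic loess (0.41, adjusted p = 0.0385), normexp correction (0.28, adjusted p = 0.025) and the deposited value table (0.38, adjusted p = 0.00326). The fitted variance is shared by all 4 groups, and the Csf3 values near background in the groups without LPS spread more than those with LPS. When only the 2 groups were fitted, the adjusted p was 0.00151.

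**Figure D2:**
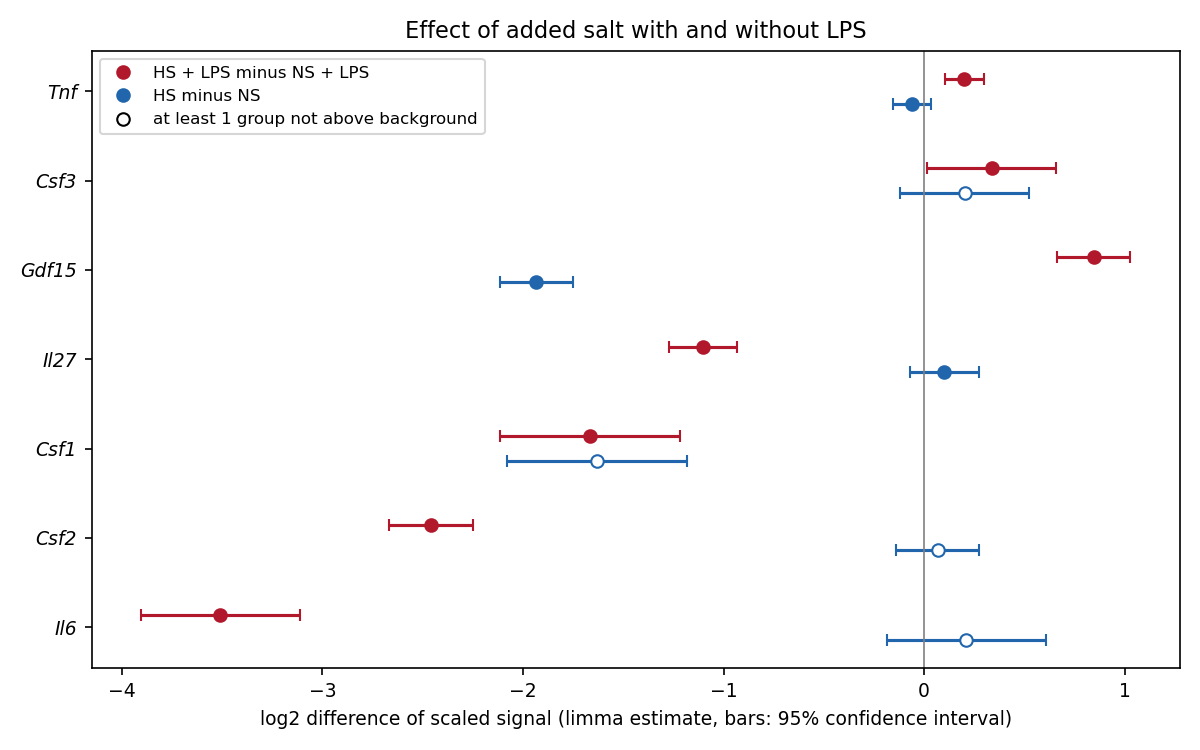
Log2 difference of the 7 tested genes between cells with and without added salt, in the presence (HS + LPS minus NS + LPS) and absence (HS minus NS) of LPS, with 95% confidence intervals from limma over 3 arrays per group. Il6, Csf2 and Il27 lie to the left of 0 with LPS, Csf1 lies to the left in both, and Gdf15 is at -1.93 without LPS and 0.84 with it; open points mark comparisons in which at least 1 group was not above background.

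Fewer of these genes were called for salt in resting cells. Of the 7 tested, Gdf15 and Csf1 fell and none rose, while 37% of all genes were called, 18.7% lower, and 1.61% fell at least 2-fold. Il6, Csf2 and Csf3 were not well above background on any HS or NS array, so no salt difference can be read for them there.

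Gdf15 was at 51.6, 59.4 and 47.8% in HS, against 221, 193 and 192% in NS, with no overlap between the groups. This was a 3.82-fold fall (-1.93, SE 0.082, adjusted p = 7.28e-07; rank 27 from the lowest of 13923 genes), and HS and NS lay on the same slide. Csf1 was at 3.45, 4.34 and 2.13% in HS, where 2 of 30 spots were well above background, against 9.98, 10.0 and 9.50% in NS, where all 30 were. It was at least 2.58-fold lower (fitted -1.63, SE 0.20, adjusted p = 0.000172), and the SD among the 10 spots was 0.30 to 0.66 (log2) in HS and 0.16 to 0.17 in NS. The fitted value was -0.43 with normexp correction (adjusted p = 0.00014) and -0.38 for the mean of the 3 Csf1 probes (adjusted p = 0.0348), of which the other pair was not above background in HS or NS.

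Tnf was at 1935, 2023 and 2043% in HS, against 2011, 2091 and 2159.8% in NS. The groups overlapped, and the difference of -0.061 (SE 0.043, adjusted p = 0.298) had a 95% interval of -0.16 to 0.03. Il27 was at 47.2, 50.001 and 47.6% in HS, against 46.6, 42.6 and 45.9% in NS. Its groups did not overlap, as in 50.4% of all genes, and its difference of 0.10 (SE 0.077, adjusted p = 0.341) was not called. Ebi3 was at 1523 ± 57.9% in HS and 1802 ± 73.8% in NS and fell by 0.24 (SE 0.052, adjusted p = 0.00491).

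The test of whether the salt difference itself depended on LPS, the difference with LPS minus the difference without, called 5 of the 7 genes, 2 higher and 3 lower, against 36.1% of all genes, 17.3% higher and 18.8% lower. For Gdf15 it was 2.78 (SE 0.12, adjusted p = 1.26e-06), since added salt went with less Gdf15 in resting cells and more in LPS-treated cells. It was -1.20 for Il27 (SE 0.11, adjusted p = 4.47e-05) and 0.26 for Tnf (SE 0.061, adjusted p = 0.00819). For Il6 (-3.72, adjusted p = 8.23e-06) and Csf2 (-2.52, adjusted p = 2.45e-06) the part without LPS was measured at background, so the size depends on it. Csf1 (-0.033, SE 0.28, adjusted p = 0.937, 95% interval -0.67 to 0.60) was not called. Its HS level lay at background and its interaction was called with normexp correction (-0.83, adjusted p = 1.87e-05) and for the mean of the probes (-1.23, adjusted p = 0.000596). Csf3 (0.13, SE 0.20, adjusted p = 0.634) was not called either, though it was with quantile normalization (0.47, adjusted p = 0.0105) and the value table (0.45, adjusted p = 0.0133), and not with cyclic loess (0.25, adjusted p = 0.384).

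LPS without added salt raised 6 of the 7 genes and lowered Gdf15, against 63.6% of all genes called in this comparison (28.5% higher and 35.1% lower), and all 6 rose at least 2-fold, as did 6.69% of all genes. Il6, Csf2 and Csf3 passed the filter through the LPS groups alone, so their rise with LPS was fixed by that choice, and the counts for LPS are a description. Csf3 was at 1455, 1477 and 1394% in NS + LPS, against 1.38, 0.915 and 0.911% in NS, at background, so it was at least 401-fold higher. Il6 was at least 189-fold higher in NS + LPS than in NS, where it read 1.26, 1.24 and 0.922%. Csf2 was at least 26.9-fold higher in NS + LPS than in NS, where it read 1.32, 1.26 and 1.09%. The adjusted p was 2.78e-12 for Csf3, 2.94e-11 for Il6 and 4.33e-12 for Csf2. All 3 were well above background on every NS + LPS array and on no NS array. Their at-least folds hold for the main scaling only. Over all settings run the lowest log2 difference was 7.03 for Csf3, 5.90 for Il6 and 3.15 for Csf2, each smaller than its bound.

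The other LPS-raised genes were already measurable in resting cells. Csf1 was 9.89-fold higher in NS + LPS than in NS (3.31, SE 0.20, adjusted p = 1.71e-07), Tnf 6.46-fold higher (2.69, SE 0.043, adjusted p = 7.23e-12) and Il27 5.13-fold higher (2.36, SE 0.077, adjusted p = 1.52e-09). Gdf15 alone of the 7 fell, at 127, 129 and 137% in NS + LPS, against 221, 193 and 192% in NS (-0.62, SE 0.082, adjusted p = 6.71e-05), which is 1.54-fold lower. On the slide that holds NS and NS + LPS replicates 1 and 2 the difference was -0.66 (adjusted p = 0.00112).

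With added salt, LPS raised all 7 tested genes, against 72.2% of all genes called, 30.4% higher and 8.17% at least 2-fold higher, and the same limit holds for Il6, Csf2 and Csf3. Csf3 was at least 477-fold higher in HS + LPS than in HS, where it read 1.05, 1.28 and 1.30%. Il6 was at least 15.7-fold higher than in HS (1.06, 1.29 and 1.63%), Csf1 at least 8.04-fold, and Csf2 at least 4.62-fold higher than in HS (1.30, 1.25 and 1.27%). These bounds too hold for the main scaling only. The lowest log2 differences over all settings were smaller than the bounds, at 7.12 for Csf3, 2.67 for Il6, 1.56 for Csf1 and 1.39 for Csf2. Tnf was 7.74-fold higher (2.95, SE 0.043, adjusted p = 4.1e-12), Gdf15 4.46-fold (2.16, SE 0.082, adjusted p = 4.77e-09) and Il27 2.23-fold (1.16, SE 0.077, adjusted p = 2.99e-07). The LPS comparisons share arrays with the salt comparisons, so these values restate the same levels from the other side.

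The combined treatment was also set against untreated cells, a comparison added after the values were seen. All 7 genes were called higher in HS + LPS than in NS, against 71.8% of all genes called and 31.2% called higher. Csf1 was 3.12-fold higher (1.64, SE 0.20, adjusted p = 3.3e-05) and Il27 2.39-fold (1.26, SE 0.077, adjusted p = 1.58e-07). Gdf15, at 229.8, 231 and 245% in HS + LPS and 221, 193 and 192% in NS, did not overlap, as in 74.9% of all genes, and was 0.22 higher (SE 0.082, adjusted p = 0.0318). That call was lost with no filter (adjusted p = 0.0534), with replicate number as a block (adjusted p = 0.0554) and without any one of NS replicate 2 or 3 or any HS + LPS replicate (adjusted p 0.0502 to 0.102).

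In order of level, Gdf15 thus ran HS + LPS, NS, NS + LPS and HS, where HS + LPS over NS was not called in every setting, NS over NS + LPS was called, and NS + LPS over HS was not tested although the arrays did not overlap. Il6 and Csf2 ran NS + LPS, then HS + LPS, with HS and NS at background and unordered. Csf1 ran NS + LPS, HS + LPS, NS and HS, the last at background. Il27 ran NS + LPS, HS + LPS, and then HS and NS, whose arrays did not overlap but whose difference was not called. For Tnf the order was HS + LPS, NS + LPS, and then HS and NS without a called difference.

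Lif, Il10 and Il12b stayed at or near background, and a bound is given for Lif alone. Lif, a member of the Il6 family that signals through gp130, was at 5.85, 8.18 and 6.45% in HS + LPS (1 array well above background), 6.57, 9.41 and 8.29% in NS + LPS (2 arrays), 2.82, 1.32 and 1.33% in HS and 1.06, 1.67 and 0.976% in NS (no array). Its HS + LPS and NS + LPS values overlapped, and it was at least 2.23-fold higher in NS + LPS than in NS. The NS + LPS mean in that bound includes replicate 1, which was not well above background.

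Il10, the cytokine that restrains macrophage activation, was at 4.85, 4.31 and 4.63% in HS + LPS, where 5 of 30 spots were well above background, and at 4.78, 5.33 and 4.59% in NS + LPS, where 10 of 30 were. It was at 3.27, 1.88 and 1.57% in HS (2 of 30 spots) and 2.33, 2.50 and 2.94% in NS (0 of 30). Only NS + LPS replicate 3 passed as an array. The HS + LPS and NS + LPS values overlapped. Il12b, the p40 subunit shared by IL-12 and IL-23, was not well above background on any array, at 1.53, 1.48 and 1.32% in HS + LPS, 1.89, 2.10 and 2.04% in NS + LPS, 1.01, 1.24 and 1.38% in HS and 1.02, 0.937 and 0.898% in NS.

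The partners of p40 differed from each other. Il12a, which completes IL-12, was not well above background on any array. Il23a, which completes IL-23, was at 6.46, 6.50 and 6.51% in HS + LPS (no array above background) and 22.8, 23.0 and 22.7% in NS + LPS (all 3 arrays). It read 3.52-fold lower in HS + LPS than in NS + LPS as fitted (-1.82, adjusted p = 0.000798), which is not a lower bound. That difference was -0.55 with normexp correction, -1.43 with cyclic loess and -1.62 with quantile normalization. By the main scaling Il23a was at least 6.35-fold higher in NS + LPS than in NS (adjusted p = 2.63e-06). With normexp correction that log2 difference was 1.41, smaller than the bound. Il23a passed the filter through NS + LPS alone, a choice that favours both differences, so they are a description.

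The same comparison can be read in related gene lists. Of 43 other secreted cytokines and growth factors, 27 were tested, and with salt and LPS 8 rose and 14 fell relative to NS + LPS (median log2 difference -0.23, against -0.043 over all genes). The shares over all genes were 26.1% called higher and 31.3% called lower. Il1b, the precursor of the fever cytokine IL-1 beta, was at 51.8, 53.0 and 50.005% in HS + LPS, against 245, 292 and 252% in NS + LPS, and fell by 2.35 (SE 0.084, adjusted p = 6.64e-08). Il1a, its sister cytokine, was at 3.25, 4.35 and 2.06% in HS + LPS, none well above background, against 28.5, 38.4 and 29.4% in NS + LPS, and was at least 6.24-fold lower (adjusted p = 0.0128). Its value was 23.1% on 1 HS array and 0.982 and 1.19% on the other HS arrays. Tnfsf10, the death ligand TRAIL, was at least 3.41-fold lower (adjusted p = 9.43e-08). Il1a and Tnfsf10 passed the filter through NS + LPS alone, a choice that favours a fall, so their falls, counted in the 14, are a description. Il11, an Il6 family cytokine, rose at 40.8, 32.8 and 46.0% in HS + LPS, against 8.01, 9.53 and 9.40% in NS + LPS (2.14, SE 0.15, adjusted p = 2.26e-06).

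In resting cells 6 of those 27 were called higher with salt and 11 fell (median -0.043, against 0.017 over all genes), while 37% of all genes were called, 18.7% lower. Il1b and Ifnb1 among those called higher were not well above background in either group. The growth factors Kitl (-1.35, SE 0.16), Igf1 (-1.34, SE 0.074) and Pdgfb (-1.23, SE 0.097) fell. Il1rn, the natural blocker of the IL-1 receptor, was called higher (adjusted p = 0.0122) at 4.88, 3.75 and 8.94% in HS, against 2.34, 2.93 and 1.37% in NS, but replicate 3 of HS was the single array of the 6 well above background, so no fold is given. With LPS and no added salt 20 rose and 4 fell (median 0.71, against -0.034), while 28.5% of all genes were called higher and 35.1% lower. The largest rises were those of Il1b (at least 73.0-fold) and Ifnb1 (at least 26.4-fold). Il1b and Ifnb1 passed the filter through the LPS groups alone, so their rise was fixed by that choice, and this count and median are a description. Ifnb1, the type I interferon, was higher again in HS + LPS than in NS + LPS by 0.46 (SE 0.097, adjusted p = 0.00268).

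Receptors of these cytokines were called in both directions. Of 16 on the list 12 were tested, and relative to NS + LPS 3 rose and 5 fell in HS + LPS (median -0.042, against -0.043). With 26.1% of all genes called higher and 31.3% lower, these counts say little by themselves. Tnfrsf1b, the receptor TNFR2, was at 57.0, 53.3 and 45.7% in HS + LPS, against 138, 154 and 145% in NS + LPS, and fell by 1.49 (SE 0.15, adjusted p = 2.17e-05). Csf1r, the receptor for Csf1, was at 44297, 42057 and 39994% in HS + LPS, against 27524, 26144 and 29533% in NS + LPS, a rise of 0.60 (SE 0.075, adjusted p = 8.83e-05). By the same scaling Gapdh was at 0.36 and Actb at 0.19 in this comparison. In resting cells 1 receptor rose and 6 fell with salt, while 37% of all genes were called, 18.7% lower. Those that fell included Il10rb at -0.87 (SE 0.058), Tnfrsf1b at -0.81 (SE 0.15), Csf2rb2 at -0.64 (SE 0.066) and Il6st, the gp130 chain of the Il6 and Lif receptors, at -0.57 (SE 0.066).

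Under LPS without added salt, 4 receptors rose and 5 fell, while 28.5% of all genes were called higher and 35.1% lower. The Il6 receptor chains Il6ra (-0.94, SE 0.050) and Il6st (-0.77, SE 0.066) both fell, while Tnfrsf1b rose (1.01, SE 0.15). The receptor chain Csf2rb2, the beta chain through which mouse cells respond to IL-3, had the highest interaction of the list (0.90, SE 0.094, adjusted p = 0.000104): it was at 601, 591 and 591% in HS + LPS, against 478, 501 and 509.98% in NS + LPS, and at 283, 275 and 254% in HS, against 394, 468 and 404% in NS.

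**Figure D3:**
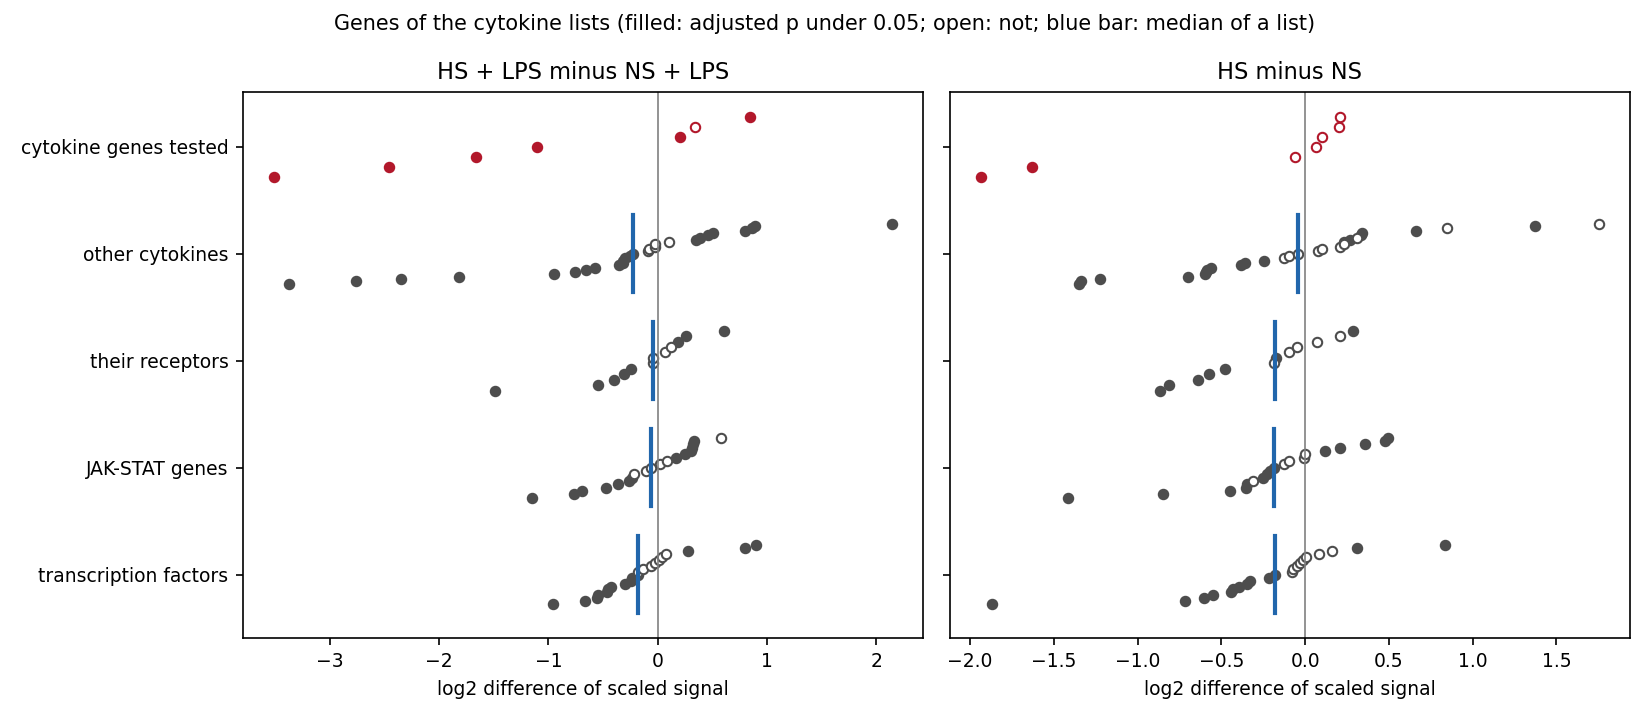
Log2 differences of the 7 tested genes and of 4 related gene lists for HS + LPS minus NS + LPS (left) and HS minus NS (right), with filled points for genes called at an adjusted p under 0.05 and a blue bar at each list's median. In HS + LPS minus NS + LPS the lists' medians lie between -0.23 and -0.042, and single cytokine genes reach further from 0 on both sides than the receptors.

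Genes of JAK-STAT signalling, through which Il6, Lif, Il10, Il27, Csf2 and Csf3 act, included the feedback inhibitors. Of 21 listed genes 19 were tested, and in HS + LPS 6 rose and 7 fell relative to NS + LPS (median -0.062, against -0.043 over all genes). With 26.1% of all genes called higher and 31.3% lower, these counts say little by themselves. The inhibitors Socs3 (-0.47, SE 0.042, adjusted p = 8.69e-06), Socs1 (-0.69, SE 0.089, adjusted p = 0.000113) and Cish (-1.15, SE 0.16, adjusted p = 0.000193) fell, as did the kinase gene Pim1 (-0.76, SE 0.087). Socs3 was at 2572, 2461 and 2540% in HS + LPS, against 3454, 3621 and 3432% in NS + LPS. LPS alone had raised Socs3 by 3.30 (SE 0.042) and Socs1 by 2.94 (SE 0.089). In that comparison 13 of the 19 rose and 2 fell, while 28.5% of all genes were called higher and 35.1% lower. In resting cells 5 were called higher and 9 lower with salt (Cish among them at background in both groups), while 37% of all genes were called, 18.7% lower. Those measured included Bcl3 (-0.85, SE 0.090), an atypical member of the I kappa B family, and the kinase genes Jak2 (0.48, SE 0.052) and Pim3 (0.50, SE 0.059).

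Of 23 transcription factors known to act on cytokine genes 21 were tested, and in HS + LPS 3 rose and 11 fell relative to NS + LPS (median -0.18, against -0.043 over all genes). The shares over all genes were 26.1% called higher and 31.3% called lower. Those that fell included Nfkb2, a subunit of NF-kB (-0.67, SE 0.056, adjusted p = 6.31e-06), and Batf2 (-0.95, SE 0.074, adjusted p = 3.8e-06). Cebpa rose by 0.80 (SE 0.047) and Nfat5, the tonicity-responsive factor, by 0.90 (SE 0.060), at 229, 212 and 235% in HS + LPS, against 120.4, 119 and 124% in NS + LPS. In resting cells 2 rose and 11 fell with salt, while 37% of all genes were called, 18.7% lower. Nfat5 rose there by 0.83 (SE 0.060), and Atf3 (-1.87, SE 0.13), Fos (-0.72, SE 0.084) and Relb (-0.60, SE 0.066) fell. LPS without added salt raised 14 and lowered 6, while 28.5% of all genes were called higher and 35.1% lower. Those raised included Fosl1 at 3.03 (SE 0.061), Batf2 at 2.86 (SE 0.074), Egr1 at 2.70 (SE 0.079) and Nfkbiz at 2.61 (SE 0.079).

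Gdf15 was followed further in a list of 12 stress regulators, of which all 12 were tested, since Gdf15 is a known target of p53 and of the integrated stress response. In resting cells 7 fell with salt and 2 rose (median -0.20, against 0.017 over all genes), while 37% of all genes were called, 18.7% lower. The fallers included Trib3, at 720, 803 and 527% in HS, against 2440, 2239 and 2260% in NS (-1.78, SE 0.13, adjusted p = 6.98e-06). Ddit3, which codes for the stress factor CHOP, was at 153, 159.8 and 136% in HS, against 307, 343 and 293% in NS (-1.07, SE 0.080, adjusted p = 8.43e-06). Chac1 fell by 1.04 (SE 0.11), and Xbp1, a factor of the unfolded protein response, rose by 0.57 (SE 0.047).

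In LPS-treated cells 4 of the 12 rose with salt and 6 fell, while 26.1% of all genes were called higher and 31.3% lower. Trib3 (-1.19, SE 0.13) and Ddit3 (-0.87, SE 0.080) fell there too, while Gdf15 rose. Those that rose included Cdkn1a, at 8668, 8108 and 8470.2% in HS + LPS, against 4313, 4398 and 4726% in NS + LPS (0.91, SE 0.046, adjusted p = 3.09e-07), and Mdm2, at 11511, 10843 and 11794% in HS + LPS, against 5940.3, 5550.5 and 5675% in NS + LPS (0.99, SE 0.048, adjusted p = 2.42e-07). Cdkn1a and Mdm2 are known targets of p53. The interaction was 1.03 for Cdkn1a (SE 0.065), 0.90 for Mdm2 (SE 0.068), 0.64 for Sesn2 (SE 0.11) and 0.59 for Trib3 (SE 0.18), and 1.40 for Atf3 (SE 0.19), the stress factor listed among the transcription factors. Unlike Gdf15, Atf3 was lower with salt under LPS too, at 1880, 1797 and 1819% in HS + LPS, against 2654, 2532 and 2415% in NS + LPS. Of the 12 stress regulators 5 were called higher in the interaction and 2 lower, against 17.3% and 18.8% of all genes. The 2 called lower, opposite to Gdf15, were Ppp1r15a (-0.52, SE 0.055) and Xbp1 (-0.47, SE 0.067), and the fifth called higher was Asns (0.19, SE 0.067).

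**Figure D4:**
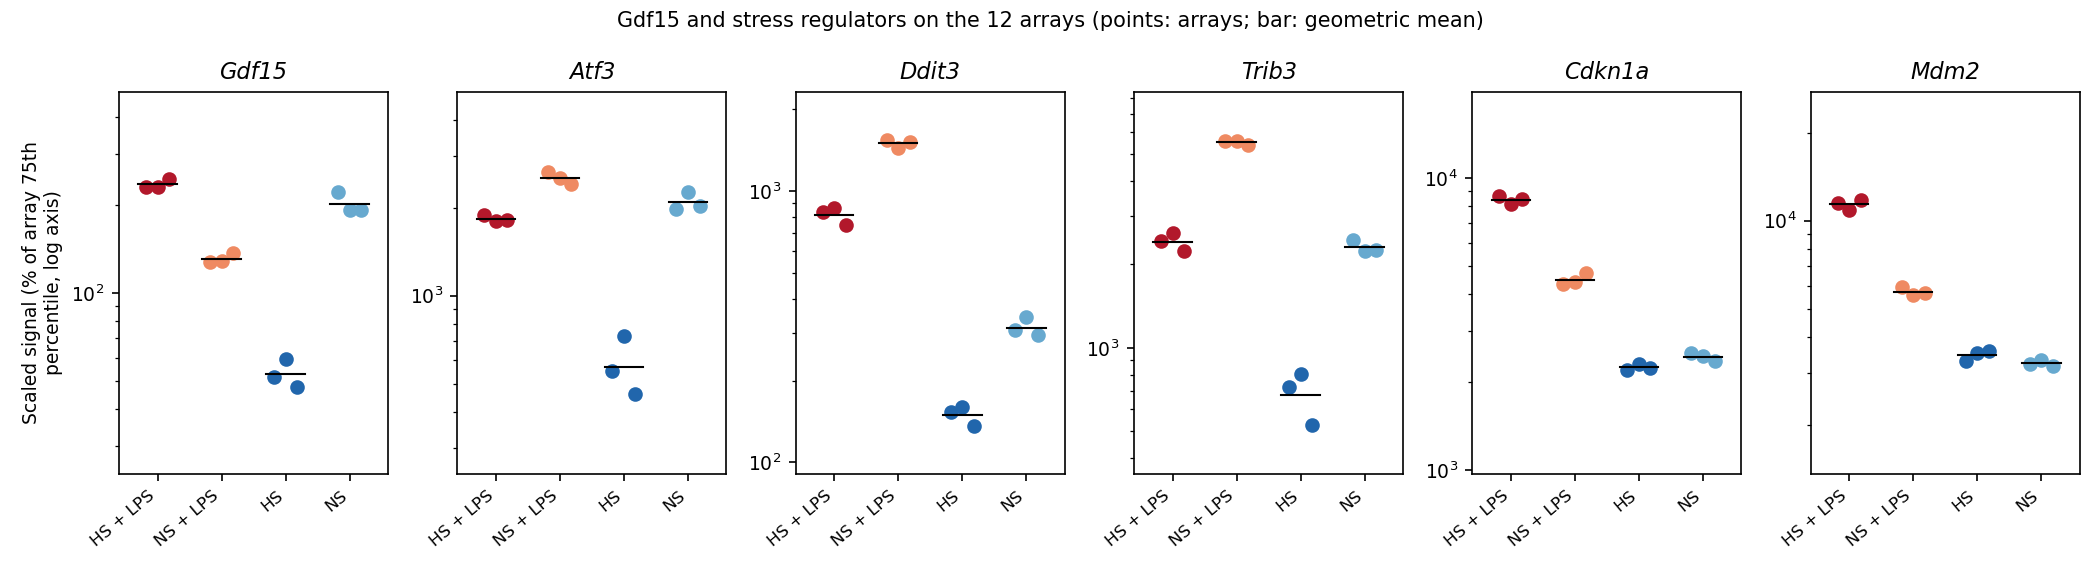
Signal of Gdf15, of the stress regulators Ddit3, Trib3, Cdkn1a and Mdm2 and of Atf3, from the transcription factor list, on the 12 arrays, as percent of the array's 75th percentile on a log axis, with each array as a point and the geometric mean as a bar. Gdf15, Atf3, Ddit3 and Trib3 are lower in HS than in NS. In HS + LPS, relative to NS + LPS, Gdf15, Cdkn1a and Mdm2 are higher and Atf3, Ddit3 and Trib3 lower. Ppp1r15a and Xbp1, opposite to Gdf15 in the interaction, are not shown.

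The genes whose pattern over the 12 arrays was most like that of each cytokine gene were named by Pearson correlation of log2 values, as a description, since the points share treatments and slides. Il6 was nearest to Il1f6, an IL-1 family cytokine (r = 0.998), followed by Zfp811 and Nfil3, and Csf2 was nearest to Zfp811 and Nfil3 (r = 0.997 and 0.996), followed by Adora2b. Csf3 and Tnf were both nearest to Isg20 (r = 0.9995 for Csf3 and 0.999 for Tnf), an interferon-induced exonuclease, followed by Lta and Apod for Csf3 and by Ptgs2 and Ptpn22 for Tnf. Csf1 was nearest to Metrnl (r = 0.996), and Il27 to Wfdc21 (r = 0.998). Gdf15 had the least close neighbours, Arhgap22 (r = 0.974), Tollip (r = 0.97) and Slc41a2 (r = 0.962). Il1f6 was at 11.1, 15.4 and 10.9% in HS + LPS, against 51.3, 43.7 and 45.6% in NS + LPS. Arhgap22 was at 493, 475 and 487% in HS + LPS, against 406, 412 and 419% in NS + LPS, and at 233, 241 and 208% in HS, against 462, 485 and 410.3% in NS.

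**Figure D5:**
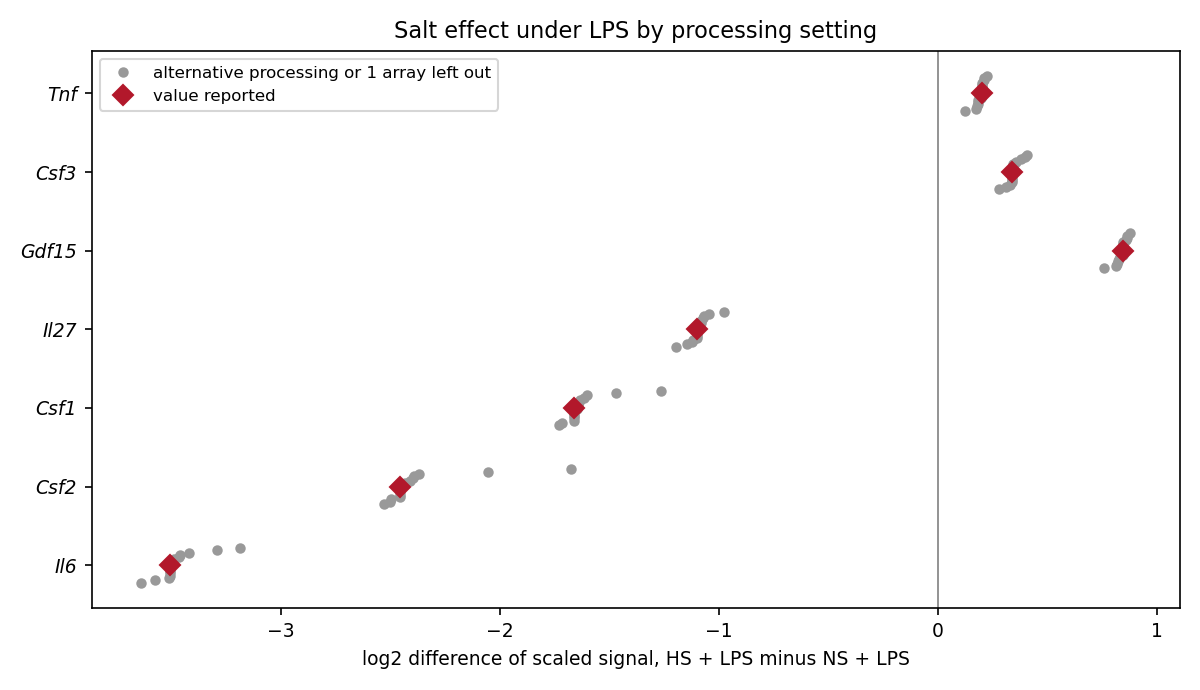
Log2 difference of the 7 tested genes in HS + LPS minus NS + LPS as reported (diamonds) and with each other processing setting or with 1 array left out (grey points). Il6, Csf2, Csf1 and Il27 stay below 0 and Gdf15, Tnf and Csf3 above 0 in every setting run, and Csf2 varies between -2.53 and -1.68.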

How the data were processed

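RNA from 12 samples was measured on single-dye (Cy3) Agilent arrays with 62976 spots, read with Feature Extraction 10.7.3.1 per the file headers, which place probes on mm9. The deposited files hold processed signal intensity per spot, background-subtracted per the file headers, and flags (other values, 0 or 1) for spots well above background, saturated or outlying. A deposited value table of linear intensity, normalized between arrays by the authors with a method not given in the sources used here (median 28.8 on all arrays), served as an alternative; it kept the order of the scanner values, and how it was scaled is unknown.

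From these, log2 intensity minus each array's 75th percentile (59305 non-control spots) was averaged over the spots of a probe, without outlier spots. A probe counted as well above background where at least 50% of its spots did. Genes needed this on all 3 arrays of at least 1 group, and the brightest passing probe stood for the gene. limma 3.58.1 (R 4.3.3) was fitted over the 4 groups with 8 residual degrees of freedom and Benjamini-Hochberg adjustment over 13923 genes. An at-least fold sets the measured group against each array's lowest signal well above background (or the probe's own, where higher). It is a bound under the main scaling only, and other settings gave smaller differences for some genes. The number of arrays limits the precision. Symbols were updated through RefSeq accessions.

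The 10 cytokine genes were all named. In each other list and comparison, up to 4 genes with the largest called differences were named, and Ebi3, Il12a, Il23a, Gapdh and Actb as partners or controls. Asns was named after its value was seen, to complete a count. Il1f6, Arhgap22 and other like genes were named by correlation (3 per gene). The members and lists were chosen with earlier results of these data known, and HS + LPS against NS was added after the values were seen. Replicate numbers did not pair the samples (same-number correlations -0.20 to 0.12, 2 of 18 over 0.1). Alternatives were background correction, normalization, filter, probe choice, variance model, replicate and slide blocks, and each array left out.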

Additional observations from a re-analysis of the deposited data

Results flagged for a closer look

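For 5 of the 7 tested genes the salt difference with LPS departed from the salt difference without LPS by the test of that difference itself. Gdf15 had 2.78 (log2), with a fall in resting cells and a rise in LPS-treated cells. Il27 had -1.20, with a fall in LPS-treated cells and 0.10 without a call in resting cells. Tnf had 0.26, the smallest of the 5. Il6 had -3.72 and Csf2 had -2.52, and for both the HS and NS arrays were not well above background, so these sizes rest on values at background. All 5 rest on the HS + LPS arrays, which had a slide and scan day of their own, and salt with LPS cannot be told apart from these.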

How the results depend on the processing

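The counts of called genes kept within 1.5 times of the reported ones in all settings run but one. Requiring signal above background on all 12 arrays left Tnf, Il27 and Gdf15 to be tested, and 1 was called in HS against NS and 3 in each other comparison. Differences that changed sign were small or rested on values at background. In HS against NS these were Il6 with quantile normalization (-0.0022), Csf2 with quantile normalization (-0.16), the value table (-0.22) and without single arrays (-0.014 to 0.12), and Csf3 with quantile normalization (-0.071) and the value table (-0.075). In the interaction they were Csf1 with quantile normalization (0.15), cyclic loess (0.21), the value table (0.096) and without single arrays (-0.32 to 0.19, above 0 in 3), and Csf3 without NS replicate 1 (-0.063). The cause was not tested. Replicate numbers did not pair the samples. With replicate number as a block, 4718 genes, against 5147, were called in HS against NS, and 7647, against 8001, in HS + LPS against NS + LPS; the one cytokine call it changed was Gdf15 in HS + LPS against NS (adjusted p = 0.0554). Of the calls in the interaction over all genes 47.9% were higher, against 58.1% with quantile normalization, 61.3% with cyclic loess and 58.2% with the value table. In HS + LPS against HS 42.1% were higher, against 54.4% with cyclic loess, and in NS + LPS against NS 44.8%, against 56.5% without the filter. Over all settings Il6 in HS + LPS against NS + LPS was -3.64 to -3.19 and Tnf 0.13 to 0.23. Signal over background limits Lif, Il10, Il12b and all resting levels of Il6, Csf2 and Csf3.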
